A study of Mus musculus with 8 samples.

Results

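Pgam2, Phka1, Gpd1 and Pgm2 encode enzymes, or subunits of enzymes, that break down glycogen, carry sugar through glycolysis and handle the NADH that glycolysis makes in muscle. They were taken by symbol from 2 tables of called genes, and all 4 stood in both tables, which together list 6028 genes. They were chosen by their FPKM values and fold changes in these same 2 tables, in which they stand far lower in tumour-bearing muscle. Their levels, folds and q-values are therefore given as a description, with no test of their own.

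The tables come from RNA sequencing of tibialis anterior, a fast muscle at the front of the shin. Of its 4 groups of 2 libraries, the first was Balb/c mice made cachectic (wasting in cancer) by 4T1, a breast cancer line that spreads, set against healthy Balb/c mice. The other pair was CD2F1 mice made cachectic by C26m2, a spreading colon cancer line, set against healthy CD2F1 mice. Mice of every group were 12 to 14 weeks old. Both lines carried luciferase, the tumour was cut out 2 to 3 weeks after its injection, and 5 weeks after injection the mice, with metastases seen by imaging, were killed. The labels note no injection or operation in healthy mice, so what these did to muscle and what cancer did cannot be told apart, and whether a library is 1 animal or a pool is not stated. The authors' table gives 1 FPKM value (mapped fragments scaled by transcript length and library size) for each gene and group, so no value below has an SD and sequencing depth is unknown. Folds are ratios of these values between the cachectic and the healthy group. A gene is called when its table lists it, at a Cuffdiff q-value of 0.05 or less. The 4T1 table listed 4334 genes, 2031 of them lower in tumour-bearing muscle. That for C26m2 listed 4832 genes, 1985 of them lower. The listed genes made up 32.8% (4T1) and 36.8% (C26m2) of the genes estimated to have been tested, and all 4 members were among them. Genes called lower were 15.4% of tested genes in 4T1 and 15.1% in C26m2, and those called higher 17.4% and 21.7%. The list counts below stand against these shares and were not tested. In bulk tissue, fewer cells of a type and less RNA per cell cannot be told apart.

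Glycogen is the sugar store of muscle. Phosphorylase cuts glucose 1-phosphate from it once phosphorylase kinase has switched phosphorylase on, phosphoglucomutase turns that product into glucose 6-phosphate, and glycolysis then makes pyruvate, lactate and ATP, fastest in fast-twitch fibres such as those that fill the tibialis anterior. Phka1 encodes the muscle regulatory alpha subunit of phosphorylase kinase. Pgm2, in the symbols of these tables, encodes the main phosphoglucomutase of muscle. Pgam2 encodes the muscle phosphoglycerate mutase of lower glycolysis. Gpd1 encodes the cytosolic glycerol 3-phosphate dehydrogenase, which oxidises NADH in the glycerol phosphate shuttle and makes glycerol 3-phosphate for lipids.

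The symbol Pgm2 needs care. The tables give it to ENSMUSG00000025791, which the newer GENCODE and RefSeq tables call Pgm1, and those newer tables use Pgm2 for another gene, ENSMUSG00000029171. The identifiers of the other members are ENSMUSG00000020475 (Pgam2), ENSMUSG00000034055 (Phka1) and ENSMUSG00000023019 (Gpd1). In RefSeq the genes lie on chromosomes 11 (Pgam2), X (Phka1), 15 (Gpd1) and 4 (Pgm2 of the tables). Below, Pgm2 means ENSMUSG00000025791.

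All 4 genes were lower in cachectic than in healthy muscle in both models, by 9.59-fold to 19.8-fold in 4T1-bearing mice and by 3.74-fold to 8.04-fold in C26m2-bearing mice. Phosphoglycerate mutase gene Pgam2 was at 199 FPKM in 4T1-bearing muscle, against 1998 FPKM in healthy Balb/c muscle, and at 444 FPKM in C26m2-bearing muscle, against 1662 FPKM in healthy CD2F1 muscle. It was the most abundant of the 4 in every group. Phosphoglucomutase gene Pgm2 was at 49.1 FPKM in 4T1-bearing muscle, against 470.4 FPKM in healthy Balb/c muscle, and at 86.6 FPKM in C26m2-bearing muscle, against 476 FPKM in healthy CD2F1 muscle. It was second in every group. Gpd1 was at 10.9 FPKM in 4T1-bearing muscle, against 215 FPKM in healthy Balb/c muscle, and at 31.1 FPKM in C26m2-bearing muscle, against 241 FPKM in healthy CD2F1 muscle. Kinase subunit gene Phka1 was at 15.9 FPKM in 4T1-bearing muscle, against 163 FPKM in healthy Balb/c muscle, and at 23.6 FPKM in C26m2-bearing muscle, against 189 FPKM in healthy CD2F1 muscle. Gpd1 therefore stood above Phka1 in C26m2-bearing muscle and in both healthy groups, and below it in 4T1-bearing muscle, where the ratio of their FPKM was 0.682, against 1.32 in healthy Balb/c muscle. With 1 value per group, whether neighbours in this order differ beyond the spread between libraries cannot be said.

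**Figure D1:**
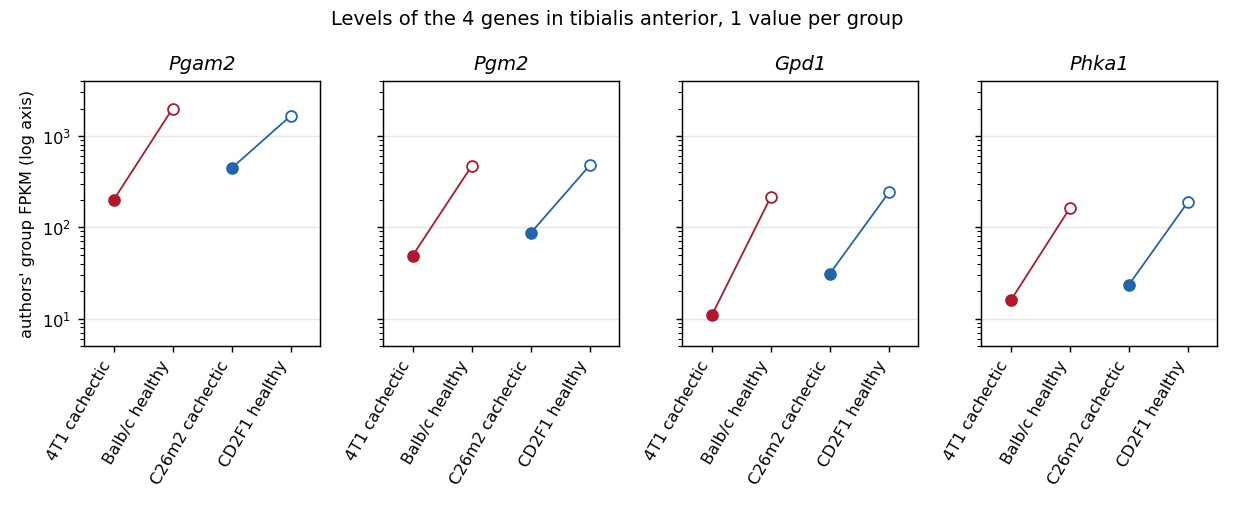
FPKM of Pgam2, Pgm2, Gpd1 and Phka1 (log axis) in the 4 groups, cachectic groups as filled and healthy groups as open circles, 1 authors' value per group and therefore no error bars, with a line joining the 2 groups of each comparison. Every cachectic value lies below its healthy value, and Gpd1 has the steepest line in the 4T1 comparison, at 10.9 FPKM in 4T1-bearing muscle against 215 FPKM in healthy Balb/c muscle.

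The authors' deposited table for 4T1 gives log2 fold changes of -3.33 for Pgam2, -3.36 for Phka1, -4.31 for Gpd1 and -3.26 for Pgm2, each at q = 0.000382. The authors' deposited table for C26m2 gives -1.90 for Pgam2, -3.01 for Phka1, -2.95 for Gpd1 and -2.46 for Pgm2, each at q = 0.000319. These q-values go with the smallest p-value in the tables, 5e-05, shared by 1727 genes for 4T1 and by 2058 for C26m2, so they do not rank the 4 genes. All 4 members were called lower in each table, where 15.4% (4T1) and 15.1% (C26m2) of the genes tested were called lower. Since these contrasts chose the members, nothing is read from that count.

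The FPKM left in 4T1-bearing muscle was 9.97% of the healthy level for Pgam2, 9.77% for Phka1, 5.04% for Gpd1 and 10.4% for Pgm2. In C26m2-bearing muscle it was 26.7% for Pgam2, 12.4% for Phka1, 12.9% for Gpd1 and 18.2% for Pgm2. In the 4T1 model 3 of the 4 genes thus lost similar shares, with Gpd1 apart, while in the C26m2 model Pgam2 kept the largest share. Ranked by size among all 2031 lower genes of the 4T1 table, Gpd1 was number 82, Phka1 184, Pgam2 194 and Pgm2 207. Among the 1985 lower genes of the C26m2 table, Phka1 was number 206, Gpd1 217, Pgm2 342 and Pgam2 604.

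By level among the 4334 listed genes, Pgam2 was number 186 in 4T1-bearing muscle against 6 in healthy Balb/c muscle. Of the 4832 genes listed for C26m2, it was number 78 in C26m2-bearing muscle against 10 in healthy CD2F1 muscle. Pgm2 was number 660 in 4T1-bearing muscle against 35 in healthy Balb/c muscle, and number 485 in C26m2-bearing muscle against 38 in healthy CD2F1 muscle. Gpd1 was number 1776 in 4T1-bearing muscle against 99 in healthy Balb/c muscle, and number 1203 in C26m2-bearing muscle against 92 in healthy CD2F1 muscle. Phka1 was number 1457 in 4T1-bearing muscle against 136 in healthy Balb/c muscle, and number 1459 in C26m2-bearing muscle against 128 in healthy CD2F1 muscle. All 4 members thus stood lower in the order of levels in cachectic than in healthy muscle. The summed FPKM of the 4 genes was 275 in 4T1-bearing muscle, against 2846 in healthy Balb/c muscle, and 585 in C26m2-bearing muscle, against 2568 in healthy CD2F1 muscle, most of it Pgam2.

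RefSeq's promoter table, built on GRCm38.p6, held 3 of the 4 members, Gpd1 not among them. A promoter there runs from 250 bases before to 50 bases after the gene's start. The sequences are shown to let the motif content of the members be compared. That the members fell together was fixed by their choice and is not read as a shared control. They lie at chr11:5803747-5804046 on the minus strand (Pgam2), chrX:102644197-102644496 on the minus strand (Phka1) and chr4:99929201-99929500 on the plus strand (Pgm2, as RefSeq Pgm1), in a newer build than the authors' NCBIM37. In Pgam2 and Phka1 capitals mark E-boxes (CANNTG), the motif of myogenic helix-loop-helix factors such as MyoD, and in Pgm2, which has none in this window, they mark the core motif of hypoxia-inducible factors (ACGTG).
Pgam2: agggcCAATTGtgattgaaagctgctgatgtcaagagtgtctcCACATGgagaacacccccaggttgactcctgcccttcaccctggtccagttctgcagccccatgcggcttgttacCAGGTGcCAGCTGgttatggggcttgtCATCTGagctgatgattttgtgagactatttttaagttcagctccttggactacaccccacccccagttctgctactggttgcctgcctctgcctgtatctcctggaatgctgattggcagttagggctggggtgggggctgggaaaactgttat
Phka1: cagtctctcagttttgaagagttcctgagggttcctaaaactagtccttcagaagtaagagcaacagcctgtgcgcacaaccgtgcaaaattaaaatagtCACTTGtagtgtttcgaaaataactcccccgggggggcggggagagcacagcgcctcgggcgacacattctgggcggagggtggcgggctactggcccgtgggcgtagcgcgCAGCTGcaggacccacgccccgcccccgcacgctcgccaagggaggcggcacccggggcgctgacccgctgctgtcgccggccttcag
Pgm2: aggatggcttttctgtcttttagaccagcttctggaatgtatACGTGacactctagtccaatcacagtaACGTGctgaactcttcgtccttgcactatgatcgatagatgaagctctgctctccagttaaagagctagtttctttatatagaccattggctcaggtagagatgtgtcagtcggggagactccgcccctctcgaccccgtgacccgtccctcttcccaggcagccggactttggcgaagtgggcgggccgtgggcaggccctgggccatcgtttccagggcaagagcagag

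The promoter of Pgam2 held 5 E-boxes, of which 1 was the muscle form CAGCTG, at bases -125 to -120 counted from the start site. That of Phka1 held 2, with CAGCTG at -38 to -33. Of 32851 promoters of the same length, 72.3% held at least 1 E-box, 2.1% held 5 or more and 16.3% held CAGCTG, which is itself an E-box. A MEF2 pattern, CTA and TAG with 4 free bases between them, was found in Phka1 alone of the 3, at -216 to -207, and 3.69% of all promoters held it. The MEF2 consensus, searched by name after the sequences had been seen and able to overlap that pattern, was found in Pgam2, at -80 to -71, and in 3.19% of all promoters. Phka1 and Pgm2 held no match to it, so the pattern found in Phka1 does not meet the consensus. The Pgm2 promoter held 2 copies of ACGTG, at -208 to -204 and -181 to -177, and 19.6% of promoters held at least 1. No match in these 3 windows was found for GTAAACA (FoxO, 3.65% of promoters), TCAGGTT (MEF3, 4.07%) or the palindrome of the glucocorticoid receptor (0.47%). All motifs were searched on both strands. A match describes letters only, and no binding was measured here.

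Pgam2 turns 3-phosphoglycerate into 2-phosphoglycerate, and most called genes of lower glycolysis were lower with it. Of the 11 other lower glycolysis genes, 5 were lower and 1 higher for 4T1, where 15.4% of tested genes were lower and 17.4% higher. For C26m2, 6 of the 11 were lower and none higher, where 15.1% of tested genes were lower and 21.7% higher. The median log2 fold change of the listed ones was -2.35 in 4T1 and -1.52 in C26m2, against 0.86 and 0.72 over all listed genes. The enolase gene Eno3, whose product takes the step after Pgam2, was at 663 FPKM in 4T1-bearing muscle, against 4944 FPKM in healthy Balb/c muscle, and at 1223 FPKM in C26m2-bearing muscle, against 3922 FPKM in healthy CD2F1 muscle. The level of Pgam2 over that of Eno3 was 0.30 in 4T1-bearing muscle, against 0.404 in healthy Balb/c muscle, and 0.363 in C26m2-bearing muscle, against 0.424 in healthy CD2F1 muscle. Pkm, the muscle pyruvate kinase gene, fell 3.51-fold in 4T1 and 2.58-fold in C26m2. Ldha, the muscle lactate dehydrogenase gene, fell 7.64-fold in 4T1 and 3.51-fold in C26m2. Bpgm, whose product belongs to the same enzyme family as Pgam2 and makes 2,3-bisphosphoglycerate, fell 10.8-fold, to 5.77 FPKM in 4T1-bearing muscle, and 7.31-fold, to 7.76 FPKM in C26m2-bearing muscle. The 1 gene listed higher was Ldhb, the heart-type lactate dehydrogenase gene, at 200.2 FPKM in 4T1-bearing muscle against 77.2 FPKM in healthy Balb/c muscle, named after its values were seen. Pgam1, the form of Pgam2 found in most other tissues, was listed in neither table. Its longest open reading frame is 76.5% identical to that of Pgam2, with a longest shared run of 28 bases.

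Upper glycolysis, which feeds Pgam2 with triose phosphates, had called genes in both directions. Of its 18 genes, 4 (22.2%) were lower and 3 (16.7%) higher in 4T1, where 15.4% and 17.4% of tested genes were. In C26m2, 2 (11.1%) were lower and 3 (16.7%) higher, where 15.1% and 21.7% were. Nothing is read from counts so near these shares. Tpi1 (triose phosphate isomerase) fell 5.90-fold in 4T1 and 3.33-fold in C26m2, and Pfkm, the muscle phosphofructokinase gene, fell 3.65-fold in 4T1 and 1.97-fold in C26m2. Gpi1, whose product takes the glucose 6-phosphate made by phosphoglucomutase, rose 2.97-fold in 4T1, to 1471 FPKM, and 2.36-fold in C26m2, to 1088 FPKM. Pfkfb3, which makes an activator of phosphofructokinase, rose 3.22-fold in 4T1 and 3.04-fold in C26m2. Fbp2, the muscle fructose bisphosphatase gene, fell 3.41-fold in 4T1. Hk3, a hexokinase gene of white blood cells, was at 1.41 FPKM in 4T1-bearing muscle, against 0.0431 FPKM in healthy Balb/c muscle. Of 9 neutrophil markers, 6 were listed in that table, all higher, with a summed level of 2126 FPKM in 4T1-bearing muscle, against 3.11 FPKM in healthy Balb/c muscle. The part of such cells in the Hk3 value was not tested.

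Phka1 is 1 of the 4 kinds of subunit of phosphorylase kinase, and the other muscle subunits fell with it, to a lesser extent. Phkg1, the muscle catalytic subunit gene, was at 23.0 FPKM in 4T1-bearing muscle, against 225 FPKM in healthy Balb/c muscle, and at 56.1 FPKM in C26m2-bearing muscle, against 226 FPKM in healthy CD2F1 muscle. Phkb, the beta subunit gene, was at 57.6 FPKM in 4T1-bearing muscle, against 220.4 FPKM in healthy Balb/c muscle, and at 126 FPKM in C26m2-bearing muscle, against 245 FPKM in healthy CD2F1 muscle. The level of Phka1 over that of Phkb was 0.276 in 4T1-bearing muscle, against 0.739 in healthy Balb/c muscle, and 0.187 in C26m2-bearing muscle, against 0.772 in healthy CD2F1 muscle. The level of Phka1 over that of Phkg1 was 0.693 in 4T1-bearing muscle, against 0.724 in healthy Balb/c muscle, and 0.420 in C26m2-bearing muscle, against 0.840 in healthy CD2F1 muscle. The testis and liver catalytic subunit gene Phkg2, named after its values were seen, went the other way, to 18.4 FPKM in 4T1-bearing muscle, against 8.09 FPKM in healthy Balb/c muscle, and to 15.4 FPKM in C26m2-bearing muscle, against 8.29 FPKM in healthy CD2F1 muscle. Phka2, the liver form of Phka1, was listed in neither table. The open reading frames of the 2 alpha subunit genes are 71.2% identical, with a longest shared run of 27 bases.

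Of the 12 other glycogen breakdown genes, 3 were lower and 3 higher in 4T1, and 5 lower and 2 higher in C26m2. Pygm, the muscle phosphorylase gene that this kinase acts on, was listed in the C26m2 table alone, at 1811 FPKM in C26m2-bearing muscle against 3014 FPKM in healthy CD2F1 muscle, with q = 0.0330 in the authors' deposited table. Prkaca, the catalytic subunit gene of protein kinase A, which activates phosphorylase kinase, fell 3.40-fold in 4T1 and 1.83-fold in C26m2. Pygm and Prkaca were named after their values were seen. Gaa, which breaks down glycogen in lysosomes, rose 5.38-fold in 4T1 and 4.63-fold in C26m2. Pygl, the liver phosphorylase gene, was at 5.92 FPKM in 4T1-bearing muscle, against 0.479 FPKM in healthy Balb/c muscle, in the comparison with the rise of neutrophil markers given above, whose part in it was not tested.

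Pgm2 links glycogen to both glycolysis and glycogen synthesis, since its product works in both directions. Of the 21 other genes of glycogen synthesis and its control, 5 (23.8%) were lower and 1 (4.8%) higher in 4T1. There 15.4% of tested genes were lower and 17.4% higher. In C26m2, 4 (19.0%) were lower and 7 (33.3%) higher, where 15.1% and 21.7% of tested genes were. The median log2 fold change of those listed in C26m2 was 0.61, against 0.72 over all listed genes. The gene for the next enzyme towards glycogen, Ugp2, rose 2.66-fold in C26m2, to 1032 FPKM, against 388 FPKM in healthy CD2F1 muscle, where Pgm2 fell 5.5-fold. Ppp1r3c, which brings protein phosphatase to glycogen, rose 3.62-fold there. Gyg, Gys1 and Gbe1, which start, extend and branch the chain, and the kinase gene Gsk3a rose by 1.49-fold to 1.62-fold in C26m2, named after their values were seen. Their direction turns to lower when folds are centred on the median of the table, which covers called genes alone. It stays higher when folds are rescaled by summed FPKM. Gsk3b, the relative of Gsk3a and also named after its values were seen, rose 2.13-fold in 4T1 and 2.27-fold in C26m2. It was the 1 gene of this list higher in 4T1. Stbd1, which tethers glycogen to membranes, fell 10.2-fold in 4T1 and 2.61-fold in C26m2. Epm2a, the glycogen phosphatase laforin, fell 2.16-fold in 4T1 and 1.53-fold in C26m2. Among the relatives of Pgm2, Pgm2l1, which makes glucose 1,6-bisphosphate, was at 1.76 FPKM in 4T1-bearing muscle, against 4.14 FPKM in healthy Balb/c muscle, and at 1.19 FPKM in C26m2-bearing muscle, against 4.16 FPKM in healthy CD2F1 muscle. Its level was a small share of that of Pgm2, which stood 27.9 times above it in 4T1-bearing muscle, against 114 times in healthy Balb/c muscle. The gene that newer tables call Pgm2 and Pgm5 were listed in neither table, and their open reading frames are 64.9% and 70.3% identical to that of the Pgm2 shown here.

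Gpd1 had the largest fall of the 4 genes in the 4T1 model. Gpd2, which encodes the mitochondrial partner of Gpd1 in the glycerol phosphate shuttle, was at 12.3 FPKM in 4T1-bearing muscle, against 67.8 FPKM in healthy Balb/c muscle, and at 27.1 FPKM in C26m2-bearing muscle, against 62.3 FPKM in healthy CD2F1 muscle. The level of Gpd1 over that of Gpd2 was 0.886 in 4T1-bearing muscle, against 3.17 in healthy Balb/c muscle, and 1.15 in C26m2-bearing muscle, against 3.86 in healthy CD2F1 muscle. So Gpd1 was the more abundant of the pair in both healthy groups, by length-scaled level, and close to Gpd2 in both cachectic groups. Of the 9 other genes of the NADH shuttles, 2 (22.2%) were lower and 1 (11.1%) higher in each table, counts from which nothing is read. The one that rose was Got1, the cytosolic aspartate aminotransferase of the malate-aspartate shuttle, by 7.06-fold to 1974 FPKM in 4T1-bearing muscle and by 4.78-fold to 1173 FPKM in C26m2-bearing muscle. Slc25a11, the carrier of that shuttle for malate, fell 2.08-fold in 4T1 and 1.68-fold in C26m2. Gpd1l, a relative of Gpd1 whose open reading frame is 75.8% identical, was listed in neither table.

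Glycerol 3-phosphate, the product of Gpd1, is the backbone of stored fat and phospholipids. Of 12 genes that use it or carry its lipids on, 1 (8.3%) was lower and 5 (41.7%) higher in each table. Of tested genes, 15.4% were lower and 17.4% higher in 4T1, and 15.1% and 21.7% in C26m2. The lower one was Gpam, whose product adds the first fatty acid to glycerol 3-phosphate, at 6.92 FPKM in 4T1-bearing muscle, against 67.7 FPKM in healthy Balb/c muscle, and at 14.4 FPKM in C26m2-bearing muscle, against 64.1 FPKM in healthy CD2F1 muscle. Lpin1 and Dgat2, which act later in the making of triglyceride, rose 4.55-fold and 3.92-fold in 4T1 and 3.14-fold and 4.95-fold in C26m2. Agpat9, another gene of the list, rose 2.90-fold in C26m2, to 5.84 FPKM, and was not listed in 4T1. The higher genes are therefore not all of later steps than Gpam.

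Gpd1 is also abundant in liver and fat cells, so markers of both were read beside it. Of tested genes, 15.4% were lower and 17.4% higher in 4T1, and 15.1% and 21.7% in C26m2. In C26m2-bearing muscle 15 of 20 liver markers were lower, with a summed level of 30.0 FPKM against 243 FPKM in healthy CD2F1 muscle, Alb, named after its values were seen, being at 8.11 FPKM against 79.5 FPKM in healthy CD2F1 muscle. There 4 of 14 adipocyte markers were lower and 3 higher, with a summed level of 391 FPKM against 87.0 FPKM in healthy CD2F1 muscle, most of it Plin4, and Adipoq was at 0.201 FPKM against 2.65 FPKM in healthy CD2F1 muscle. In the 4T1 table no marker of either list was lower. There 3 liver markers (Hp, Serpina1b and Pygl) and 3 adipocyte markers (Adig, Plin4 and Cidea) were higher, with summed levels of 26.5 FPKM and 329.9 FPKM in 4T1-bearing muscle, against 2.55 FPKM and 57.6 FPKM in healthy Balb/c muscle. No listed gene had a value of 0 in either group. The part of such cells in the values of Gpd1 was not tested.

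Outside the members, 71 genes belong to the 5 lists of glycogen breakdown, glycogen synthesis, upper glycolysis, lower glycolysis and NADH shuttles. For 4T1, 19 of them were lower and 9 higher, or 26.8% and 12.7% of the 71, where 15.4% and 17.4% of tested genes were lower and higher. For C26m2, 19 were lower and 13 higher, or 26.8% and 18.3%, where 15.1% and 21.7% of tested genes were lower and higher. When C26m2 folds were centred on the median of the table, 0.72 on the log2 scale, 23 were lower and 9 higher. Of the 71 genes 22 were listed in both tables, 16 lower in both, 6 higher in both and none in opposite directions. Over all genes, 1368 of the 6028 listed in either table were lower in both. The share of all genes that went in opposite directions is not given here, so nothing is read from these counts. Some of the 71 fell as far as members. In 4T1, Bpgm fell further than Phka1, Pgam2 and Pgm2, Stbd1 further than Pgam2 and Pgm2, and Phkg1 further than Pgm2. In C26m2, Bpgm fell further than Pgam2 and Pgm2, and Phkg1 further than Pgam2.

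**Figure D2:**
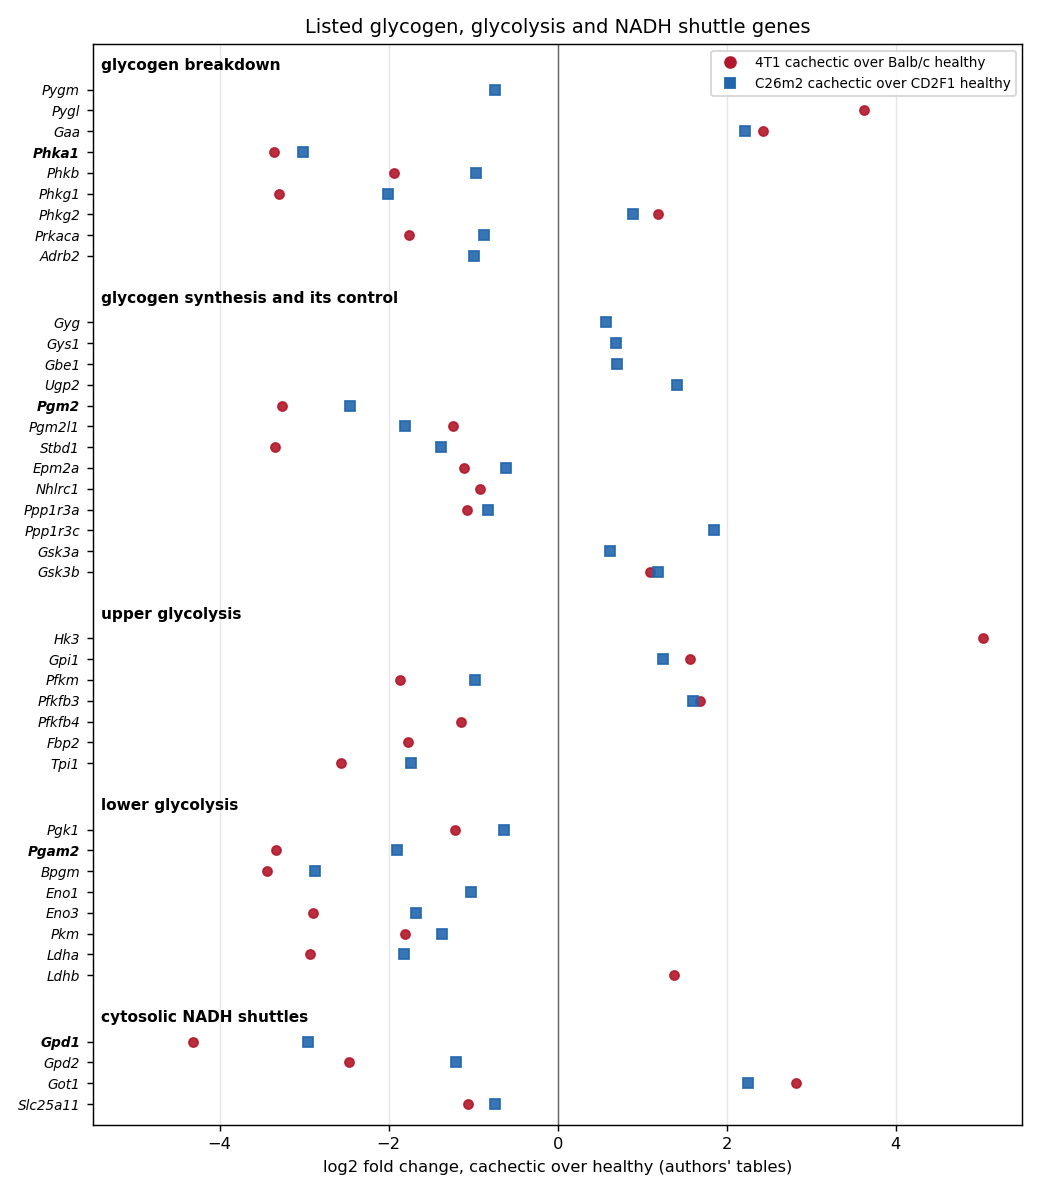
Log2 fold change, cachectic over healthy, of listed genes of the 5 lists, from the authors' tables, with 4T1 as circles and C26m2 as squares and the 4 members in bold. A gene with a marker for 1 model was not listed for the other. Lower glycolysis genes lie left of 0 except Ldhb, and Gpd1 at -4.31 in 4T1 is farthest left.

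Lists of steps before and after the members' pathway were counted too. Of 13 glucose and lactate transport genes, 3 (23.1%) were lower and 2 (15.4%) higher in each table. Of tested genes, 15.4% were lower and 17.4% higher in 4T1, and 15.1% and 21.7% in C26m2. With so few genes, nothing is read from the count. Slc37a4, which moves glucose 6-phosphate, the product of Pgm2, into the endoplasmic reticulum, fell more than any member, 22.4-fold in 4T1, to 5.30 FPKM, and 9.83-fold in C26m2, to 11.1 FPKM. Slc16a3, the lactate exporter of fast fibres, fell 16.4-fold in 4T1 and 2.64-fold in C26m2. The glucose carrier gene Slc2a1 rose 8.36-fold in 4T1, to 26.7 FPKM. Of 15 genes of pyruvate entry into mitochondria, 5 were lower and 1 higher in 4T1, and 2 lower and 3 higher in C26m2. Pdp1, which switches pyruvate dehydrogenase on, fell 5.02-fold in 4T1 and 10.3-fold in C26m2. Pdk4, which switches pyruvate dehydrogenase off, rose 20.3-fold in C26m2, to 1820 FPKM, and was not listed in 4T1.

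**Figure D3:**
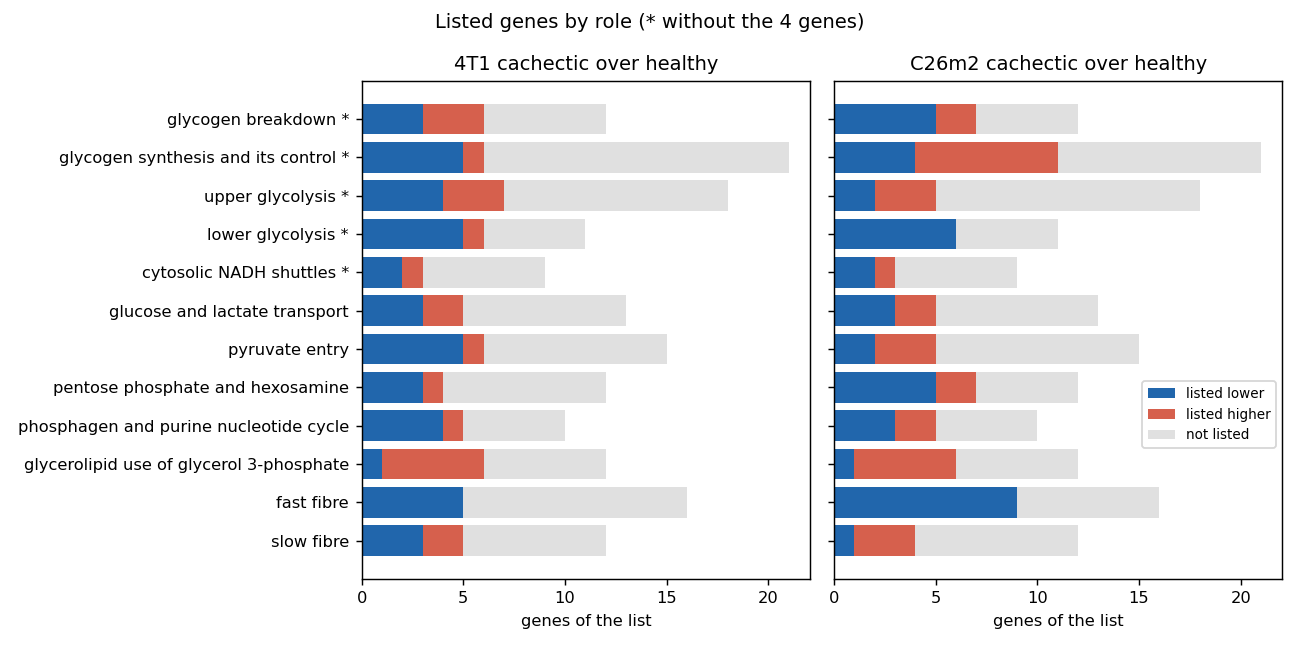
Number of genes of each role list that were listed lower, listed higher or not listed, in the 4T1 table (left) and the C26m2 table (right). The 4 members are left out of the lists marked with a star. Fast-fibre genes and lower glycolysis genes in C26m2 have no higher member, and glycerolipid genes have 1 lower and 5 higher in each table.

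Some genes of fast fibres, in which the 4 members are most used, fell in the same comparisons. Of 16 fast-fibre contraction genes, 5 (31.2%) were lower and none higher in 4T1, where 15.4% of tested genes were lower. Their summed level was 7211 FPKM in 4T1-bearing muscle against 39393 FPKM in healthy Balb/c muscle. In C26m2, 9 (56.2%) were lower and none higher, where 15.1% of tested genes were lower. Their summed level was 20292 FPKM in C26m2-bearing muscle against 51327 FPKM in healthy CD2F1 muscle. These sums cover called genes alone, which are not the same genes in the 2 tables. Pvalb (parvalbumin), a calcium buffer of fast fibres, was at 1392 FPKM in 4T1-bearing muscle, against 10602 FPKM in healthy Balb/c muscle, and at 2830 FPKM in C26m2-bearing muscle, against 11238 FPKM in healthy CD2F1 muscle. Casq1 (calsequestrin), which binds calcium in the stores of fast fibres, was at 31.3 FPKM in 4T1-bearing muscle, against 1491 FPKM in healthy Balb/c muscle, and at 66.4 FPKM in C26m2-bearing muscle, against 1355 FPKM in healthy CD2F1 muscle. Mylk4, a kinase gene of striated muscle, fell 171-fold in 4T1, to 2.79 FPKM, and 21.6-fold in C26m2, to 43.1 FPKM. Of 12 slow-fibre genes, 3 were lower and 2 higher in 4T1, and 1 lower and 3 higher in C26m2, the myoglobin gene Mb among the higher ones, with a direction that turns when folds are centred on the median of the table. Of 10 general muscle markers, none was listed in 4T1, and 3 were in C26m2, with Mb and Des higher and Actn3 lower, so the muscle label could be checked on called genes alone. The part of a change in fibre make-up in the values of the members was not tested.

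Markers of other cells of muscle moved in the same comparisons. Of tested genes, 15.4% were lower and 17.4% higher in 4T1, and 15.1% and 21.7% in C26m2. Fibroblast and tendon markers were lower, 10 of 12 in 4T1 with a summed level of 81.5 FPKM against 635 FPKM in healthy Balb/c muscle, and 11 of 12 in C26m2 with 94.3 FPKM against 520.4 FPKM in healthy CD2F1 muscle. Of 12 macrophage markers, 5 were lower and 3 higher in 4T1, and 9 lower and 2 higher in C26m2. Neutrophil markers were higher in C26m2 too, 4 of 9, with 109 FPKM against 8.45 FPKM in healthy CD2F1 muscle. The part of these cells in the values of Pgam2, Phka1, Gpd1 and Pgm2 was not tested.

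All 4 members fell further in 4T1 than in C26m2. The log2 fold change in the authors' deposited table for 4T1 minus that for C26m2 was -1.42 for Pgam2, -1.36 for Gpd1, -0.80 for Pgm2 and -0.35 for Phka1. The tables chose the members and give 1 value per group, so this difference was not tested. Of the 1368 genes lower in both tables, 75.8% fell further in 4T1, with a median difference of -0.40, and of the 16 other pathway genes lower in both, 15 did, with a median of -0.86. The exception was Pgm2l1. Healthy levels of the 4 genes in Balb/c over those in CD2F1 were 1.2 for Pgam2, 0.988 for Pgm2, 0.895 for Gpd1 and 0.860 for Phka1, set side by side across 2 tables whose scaling is not stated. The levels in 4T1-bearing over those in C26m2-bearing muscle were 0.448 for Pgam2, 0.567 for Pgm2, 0.350 for Gpd1 and 0.675 for Phka1.

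**Figure D4:**
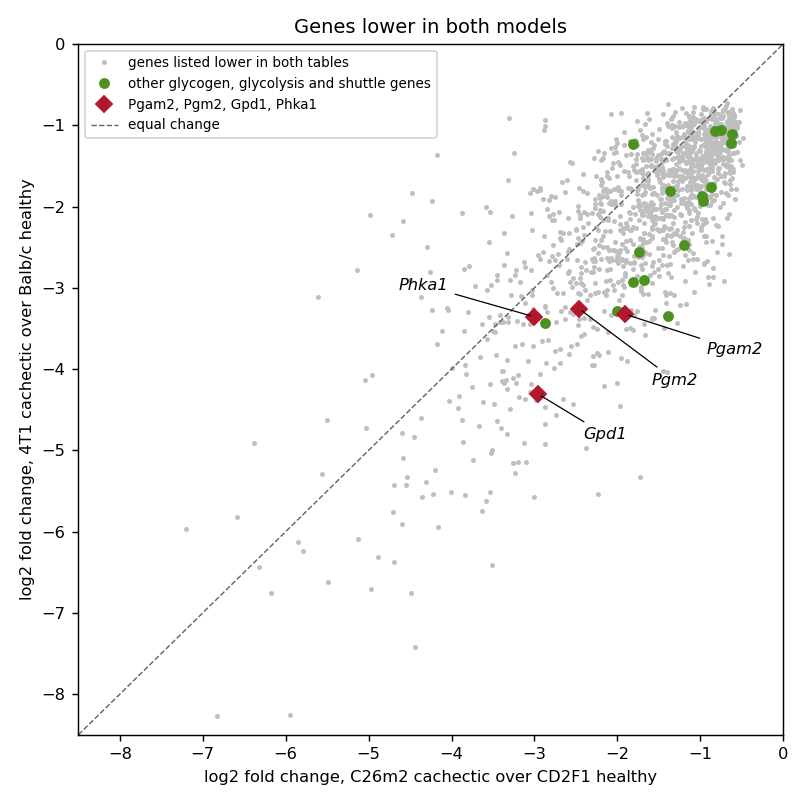
Log2 fold change in the C26m2 comparison (x axis) and in the 4T1 comparison (y axis) for the 1368 genes listed lower in both tables, from the authors' tables, with other pathway genes as circles, the 4 members as diamonds and a dashed line of equal change. All 4 members lie below the line, Phka1 closest to it at a difference of -0.35 and Pgam2 farthest at -1.42.

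Likeness of pattern was measured as the Euclidean distance between genes over the 4 group values of log2 FPKM, each gene centred on its own mean. The 2474 other genes listed in both tables at 1 FPKM or more in every group were compared. For Pgam2 the nearest were Gpam at a distance of 0.186, Stac3 (coupling of excitation to contraction) at 0.188, Phkg1 at 0.215, Palld and Shisa2. For Phka1 they were 1700123M08Rik at 0.219, Mamstr (a coactivator of MEF2 factors) at 0.225, Bpgm at 0.271, Myoz3 and Rab40b. For Gpd1 they were Camk2a (a calcium-dependent kinase) at 0.168, Gm12319 at 0.270, Abcd2, 2310010M20Rik and Serpinf1. For Pgm2 they were Pcyox1 at 0.180, Rab40b at 0.194, Calm3 (calmodulin, which is also the delta subunit of phosphorylase kinase) at 0.208, Sh3bgr and Gpam. Gpam was thus near both Pgam2 and Pgm2, and Rab40b near both Phka1 and Pgm2. Among the members themselves the distance was smallest between Phka1 and Pgm2, at 0.394, and between Pgam2 and Pgm2, at 0.396, and largest between Pgam2 and Gpd1, at 1.09. These distances rest on 4 group values each and carry no test.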

How the data were processed

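Poly-A RNA of tibialis anterior was made into libraries by an Illumina TruSeq protocol and sequenced, per the labels' protocols. Among tools, TopHat2 2.1.0, Cufflinks 2.2.1 and Cuffdiff appear in the submitters' processing notes, with NCBIM37 as the mouse build. The sources used here do not give the annotation release, the use of strand or the scaling of libraries. The 2 tables hold called genes alone. The authors deposited 1 FPKM value per gene and group, a log2 fold change of tumour-bearing over healthy muscle, which lies within 1.43e-05 of the log2 ratio of the 2 FPKM values and so has no pseudocount, and Cuffdiff p-values and q-values, per the file headers. Per-library values and depth were not used here, and genes outside a table are not called unchanged. With 2 libraries per group of unstated origin, the authors' p-values measure the spread between these libraries, which may be technical.

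Lists were counted by direction with Python 3.11.15 and pandas 2.3.3. The number of genes tested, the base of each background percentage, was estimated as the median of q times rank over p under Benjamini-Hochberg adjustment, 13218 for 4T1 and 13121 for C26m2. On simulated tables of 13000 genes for each comparison this gave 100.0% of the true number. The simulation made its q-values by the same formula, so this checks the arithmetic alone. How Cuffdiff formed its q-values was not checked. Genes were matched by table symbol and Ensembl identifier, then by GENCODE M21 symbols and RefSeq synonyms, and all 274 list symbols matched. Values were given for the members, their paralogs, at most the 4 genes of a list with the largest absolute log2 fold change in each table, and the 5 nearest genes by pattern. Genes outside this rule are marked as named after their values were seen. The members and lists were chosen with earlier results of these data known. Open reading frames were the longest of each gene's GENCODE M21 transcripts, aligned with Biopython 1.88. A planned comparison of proteins was not run. Alternatives were a stricter q, a minimum fold, a filter on low FPKM, a pseudocount and 2 other scalings. The values of 1 list gene are not reported here, in the text or the plots of single genes, though it stays in the counts.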

Additional observations from a re-analysis of the deposited data

How the results depend on the processing

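The 4 members stayed listed and lower in both tables under all 6 alternatives, and all 48 of their log2 fold changes stayed negative. This outcome was fixed in advance, since the members were chosen for large falls in these tables. The filters on q, fold and FPKM leave their folds as deposited, and both rescalings push them further down. It is therefore no check of the members. Of the other pathway genes, those lower in C26m2 numbered 19, and 10 where the log2 fold change had to be at least 1 in size. Those higher in C26m2 numbered 13, and 8 both at q of 0.01 or less and at that minimum size. Each of these alternatives keeps fewer genes by construction. All other counts of pathway genes stayed within 1.5 times. The median log2 fold change of all listed genes was 0.86 in 4T1 and 0.72 in C26m2, so folds centred on it are lower by those amounts, and rescaling by summed FPKM lowered them by 0.17 and 0.25. Both rest on called genes alone and need not measure a difference in scaling. The number of genes tested ranged from 13178 to 13337 in 4T1 and from 13117 to 13147 in C26m2. No paired analysis was possible because the tables give 1 value per group and the labels no shared replicate numbers, and for the same reason no library could be left out.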

Other observations

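Some genes of other rapid sources of ATP in fast fibres were called too. Of 10 genes of the phosphagen system and purine nucleotide cycle, 4 were lower and 1 higher in 4T1. There 15.4% of tested genes were lower and 17.4% higher. In C26m2, 3 were lower and 2 higher, where 15.1% and 21.7% of tested genes were. The other 5 genes of the list were not listed in each table. With so few genes, nothing is read from these counts. Ampd1, the muscle AMP deaminase gene, was at 32.2 FPKM in 4T1-bearing muscle, against 693 FPKM in healthy Balb/c muscle, and at 86.0 FPKM in C26m2-bearing muscle, against 497 FPKM in healthy CD2F1 muscle. Ampd3, which encodes the AMP deaminase of red cells, went the other way, to 144 FPKM in 4T1-bearing muscle, against 2.97 FPKM in healthy Balb/c muscle, and to 94.9 FPKM in C26m2-bearing muscle, against 2.61 FPKM in healthy CD2F1 muscle. Red cell markers were higher in the same comparisons, 5 of 8 in 4T1 and 3 of 8 in C26m2, with summed levels of 598 FPKM in 4T1-bearing muscle, against 112 FPKM in healthy Balb/c muscle, and 284 FPKM in C26m2-bearing muscle, against 106 FPKM in healthy CD2F1 muscle. Their part in the Ampd3 values was not tested. Ak1 (adenylate kinase) fell 6.29-fold in 4T1 and 2.84-fold in C26m2.

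Of 19 regulators of glycolytic gene expression, 6 (31.6%) were lower and 3 (15.8%) higher in 4T1, where 15.4% and 17.4% of tested genes were. In C26m2, 5 (26.3%) were lower and 7 (36.8%) higher, where 15.1% and 21.7% were. Prkag3, the AMP-activated kinase subunit gene of fast glycolytic muscle, fell 21.1-fold in 4T1 and 16.4-fold in C26m2. Mef2c, a muscle transcription factor gene, fell 13.4-fold in 4T1 and 6.49-fold in C26m2. Its relatives Mef2a and Mef2d, named after their values were seen, went the other way in C26m2, by 1.82-fold and 1.61-fold. They were not listed in 4T1, and the direction of Mef2d turns when C26m2 folds are centred on the median. The myogenic factor gene Myod1 fell 8.35-fold in 4T1 and 5.55-fold in C26m2. Ppargc1a, a coactivator of oxidative genes, rose 11.6-fold in 4T1 and 3.54-fold in C26m2.

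Of 12 pentose phosphate and hexosamine genes, 3 were lower and 1 higher in 4T1, and 5 lower and 2 higher in C26m2, the listed ones at 40.9 FPKM or less in every group.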
